A study of Macaca mulatta with 5 samples.

Results

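The input library of this series, sonicated prefrontal cortex chromatin of rhesus macaques sequenced without immunoprecipitation, was examined on its own inside and outside the regions called with H3K4me2. It was chosen by its antibody label, None, and is 1 of 5 libraries. The other 4 were immunoprecipitated with an antibody to H3K4me2, each from a single animal, at ages of 0.4, 9, 22 and 26 years. The input DNA came from prefrontal cortex of 7 animals of different ages, among them those 4, pooled before cross-linking in 1% formaldehyde for 15 min and shearing to a mean of 300 to 500 bp. The labels name no sex or strain, and the pool cannot be split by animal or age. There is 1 input library without a replicate, so no p-value was computed. For the same reason each interval given, an exact 95% interval, covers counting error only. The reads carry no molecular identifiers.

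In chromatin immunoprecipitation with sequencing (ChIP-seq), the input serves as the estimate of background against which enrichment is called. Its read density is known to vary along a genome with copy number, with how uniquely a sequence aligns, with base composition and with how readily chromatin shears. H3K4me2, dimethylation of histone H3 at lysine 4, marks promoters and enhancers, where chromatin is often accessible.

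The input held 14148769 reads of 35 bases, 13738020 of them on the 20 autosomes, and the H3K4me2 libraries held 8595726 to 11041568. Islands are the authors' enriched stretches, called once on the 4 H3K4me2 libraries together and tested against this same input. The input reads inside islands are therefore not independent of the choice of islands, since a dense input counted against a call. Of the 59189 deposited islands, the 58414 on autosomes served as coordinates. Positions are those of the files. Without a genome in the same coordinates, base composition, alignability and genes were not analysed, nor was the tissue checked against marker genes.

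The input was denser inside islands than around them. It held 7.82 reads per kb in islands (7.805 to 7.830, 1544698 reads over 197.6 Mb), 5.40 in the bases within 5 kb of an island that lie in no island (5.397 to 5.412, 1956675 reads over 362 Mb, called flanks here), and 4.76 in 10 kb bins free of islands (4.762 to 4.768, 10270970 reads in 215567 bins). The order was islands, flanks and island-free bins, and no interval touched another. Islands were 1.45 times their flanks (1.443 to 1.450) and 1.64 times the island-free bins (1.638 to 1.643), and flanks were 1.13 times those bins (1.133 to 1.136). Some flank bases lie inside an island-free bin and count in both.

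Part of the distance to the island-free bins went with sequence that no library covered. Windows of 1 kb without a read in any of the 5 libraries made up 6.94% of the island-free bins, 3.27% of the flanks and 0% of the islands, which need reads to be called. Without these windows islands were 1.53 times the island-free bins and 1.40 times the flanks, and flanks were 1.09 times the bins. When 1 kb windows with most H3K4me2 reads, chosen without reference to the input and equal in summed length, took the place of islands, the input held 8.91 reads per kb in them, 5.52 within 5 kb and 4.54 in the bins free of them, so the ratios rose to 1.61 and 1.96. Of the length of those 211016 windows, 70.6% lay in deposited islands. They were ranked on raw H3K4me2 reads, so places dense in all 5 libraries, input included, can be among them. The part of such places in the higher ratios was not tested.

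All 20 autosomes showed the order of islands, flanks and bins. Island density varied little, from 7.33 reads per kb on chromosome 5 to 8.10 on chromosome 10. The ratio of islands to flanks ran from 1.34 on chromosome 18, 1.36 on chromosome 13 and 1.375 on chromosome 17 to 1.51 on chromosome 20, 1.57 on chromosome 16 and 1.81 on chromosome 19 (1.788 to 1.823), with a median of 1.42. The intervals of the 3 lowest overlapped. In all 20 the interval lay above 1. Chromosome 19 stood apart through its low surroundings, with 7.71 reads per kb in islands, 4.27 in flanks and 3.18 in island-free bins.

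**Figure D1:**
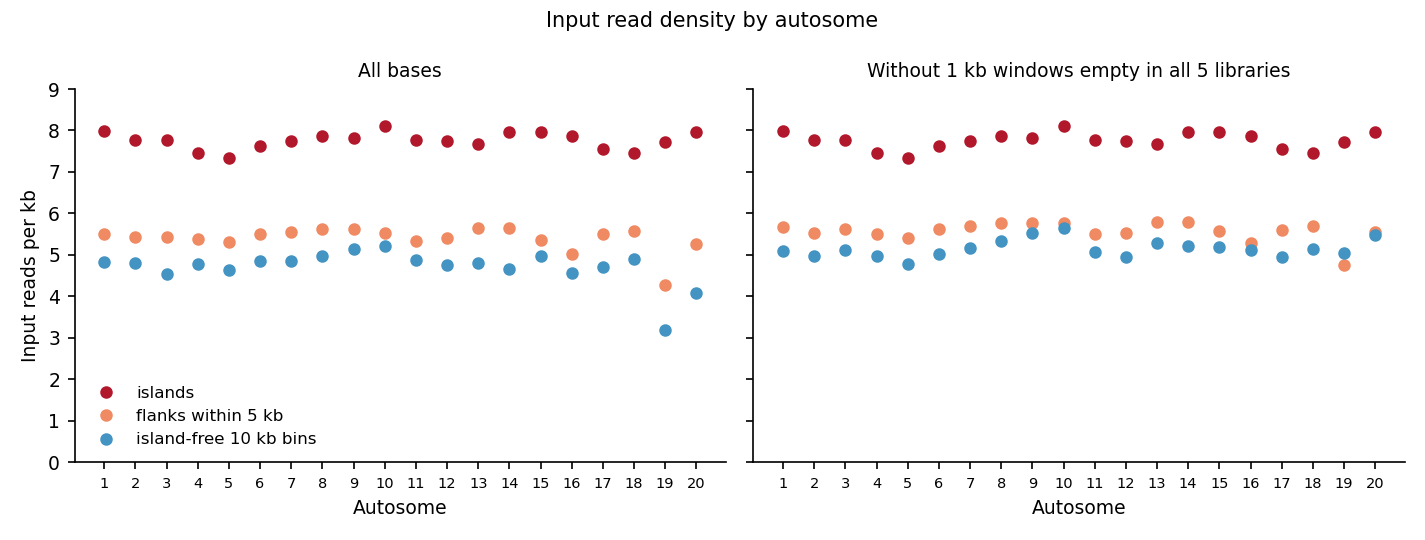
Input reads per kb in islands, in flanks within 5 kb and in island-free 10 kb bins on each of the 20 autosomes, counting all bases (left) and without 1 kb windows that are empty in all 5 libraries (right). Islands lie at 7.33 to 8.10 on every autosome, and the low island-free value of chromosome 19 moves from 3.18 to 5.04 on the right.

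Sequence without reads lay beside the low values of chromosomes 19 and 20. Empty windows made up 36.8% of the island-free bins of chromosome 19 and 25.5% of those of chromosome 20, against 3.19% on chromosome 5. Without them the island-free density of chromosome 19 was 5.04 reads per kb, within the 4.79 to 5.66 of the autosomes, and its ratio of islands to island-free bins went from 2.42 to 1.53. Its islands were still 1.62 times their flanks, more than on the other 19 autosomes. Its flanks, at 4.75 reads per kb, were then 0.94 times its bins, the reverse of the other 19.

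Chromosomes with more islands per Mb had higher ratios of islands to flanks, with a Pearson r of 0.85 and a Spearman rho of 0.80 over the 20 autosomes. Without chromosomes 16 and 19, which lie farthest from the median, r was 0.67. The points share 1 library, and the correlation is given as a description. Its ratios count empty windows, which made up 10.1% of the flanks of chromosome 19 and 1.58% of those of chromosome 5. It was not computed without them. The difference between islands and flanks also held on a finer scale. Of 2001 windows of 1 Mb with at least 10 kb each of islands and flanks, 1989 (99.4%) were denser in islands than in flanks, with a median ratio of 1.35 and 5th and 95th percentiles of 1.12 and 1.80.

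The widest islands held the densest input, and islands of up to 1 kb and over 5 to 10 kb held more than those between. In the 5674 islands of up to 1 kb the input had 8.16 reads per kb (8.077 to 8.243), 1.56 times their flanks. In the 16041 islands over 1 to 2 kb it had 7.43, 1.38 times the flanks, and in the 27111 over 2 to 5 kb it had 7.52, 1.39 times the flanks. The level was higher again in the 7776 islands over 5 to 10 kb, at 8.10 (8.072 to 8.121) or 1.52 times the flanks, and in the 1812 over 10 kb, at 8.57 (8.537 to 8.608) or 1.67 times the flanks. The intervals of the densities up to 1 kb and over 5 to 10 kb overlapped. The order of their ratios turned with reads placed 200 bp from the 5' end (1.439 against 1.476) and with a deposited fold of at least 2 (1.403 against 1.523). That fold is H3K4me2 over this input, so the filter tends to remove islands with dense input. Medians over single islands were also lowest in the classes between, with values of 8.00, 7.22, 7.33, 7.96 and 8.48 reads per kb from narrow to wide. The flanks differed less between the classes, at 5.21, 5.38, 5.42, 5.33 and 5.12 reads per kb. The summed H3K4me2 density of the 4 other libraries was also highest in the narrowest and widest classes, at 72.0, 56.1, 58.1, 61.8 and 69.2 reads per kb in the same order.

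From the island centre outward the input fell and then levelled off. Over all islands it had 7.74 reads per kb in the first 100 bp, 6.61 at 1000 bp, 6.17 at 2000 bp and 6.11 at 5000 bp from the centre. Inside islands alone there was no such decline. Positions still inside an island held 7.74 reads per kb at the centre, 7.66 at 1000 bp, 7.95 at 2000 bp and 8.01 at 5000 bp, the more distant ones only in wide islands or in a neighbouring island. Relative to each library's own island-free mean, the first 100 bp stood at 1.62 in the input and at 4.83, 6.70, 7.94 and 7.81 in the H3K4me2 libraries at 0.4, 9, 22 and 26 yr, so the input had a smaller central peak. Islands were called on those 4 libraries, which fixes that they peak there.

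The change was steepest at the island edge, where the input first rose, then dropped to a trough. Between 100 and 200 bp inside the edge it held 8.12 reads per kb, above the 7.42 found 400 to 500 bp inside. In the first 100 bp outside it held 5.64, and at 300 to 400 bp outside it reached its lowest level, 4.34 (4.305 to 4.381), under the island-free mean of 4.76. By 1000 to 1100 bp outside it was back at 5.56. The stretch 100 to 600 bp outside the edge held 4.47 reads per kb, 0.80 times (0.799 to 0.806) the 5.57 of the stretch 1000 to 2000 bp outside.

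**Figure D2:**
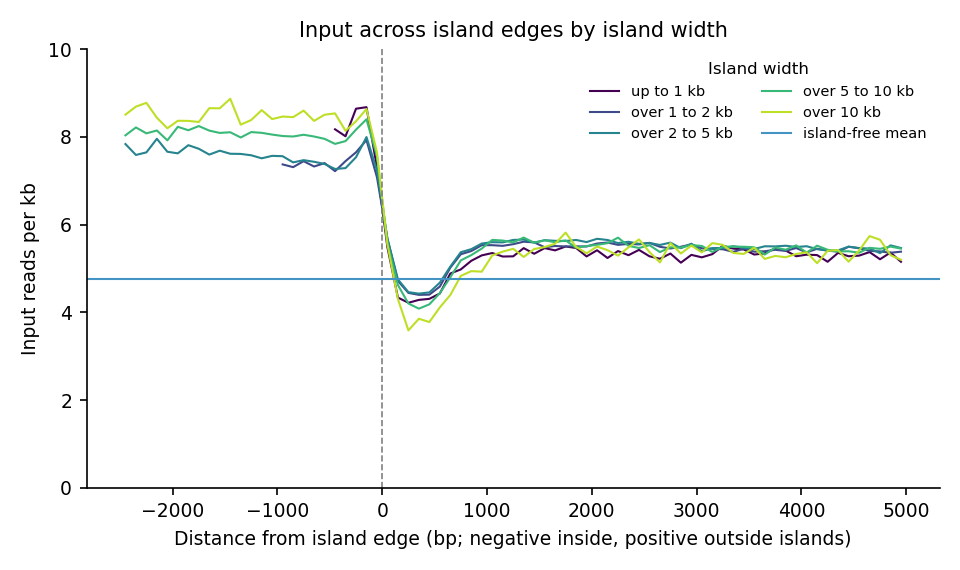
Input reads per kb in steps of 100 bp across the edges of islands in 5 width classes, with negative distances inside the island (its nearer part) and positive distances outside all islands; the horizontal line is the island-free mean. In each class the input drops at the edge to 3.59 to 4.43 reads per kb within 400 bp and returns to about its flank level by 1000 bp.

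The trough was present in each width class and deepest beside wide islands. It went from 0.80 times the level at 1000 to 2000 bp for islands of up to 1 kb, 0.82 for over 1 to 2 kb and 0.81 for over 2 to 5 kb, to 0.77 for over 5 to 10 kb and 0.72 (0.699 to 0.743) for over 10 kb, where the lowest step held 3.59 reads per kb. The deposited table's name gives windows of 200 bp and a gap of 400 bp for the calling, which sets edges by the H3K4me2 reads. The H3K4me2 libraries had a trough in the same place, where the calling itself requires few H3K4me2 reads. At 300 to 400 bp outside the edge they stood at 0.96, 1.19, 1.15 and 1.14 times their island-free means in order of age, and at 1000 to 1100 bp at 1.61, 1.90, 1.92 and 1.86, against 0.91 and 1.17 in the input. The part of edge placement in the trough was not tested. With the first 1 kb left out of the flanks, islands were 1.40 times the flanks in place of 1.45, a value added after the trough was seen.

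**Figure D3:**
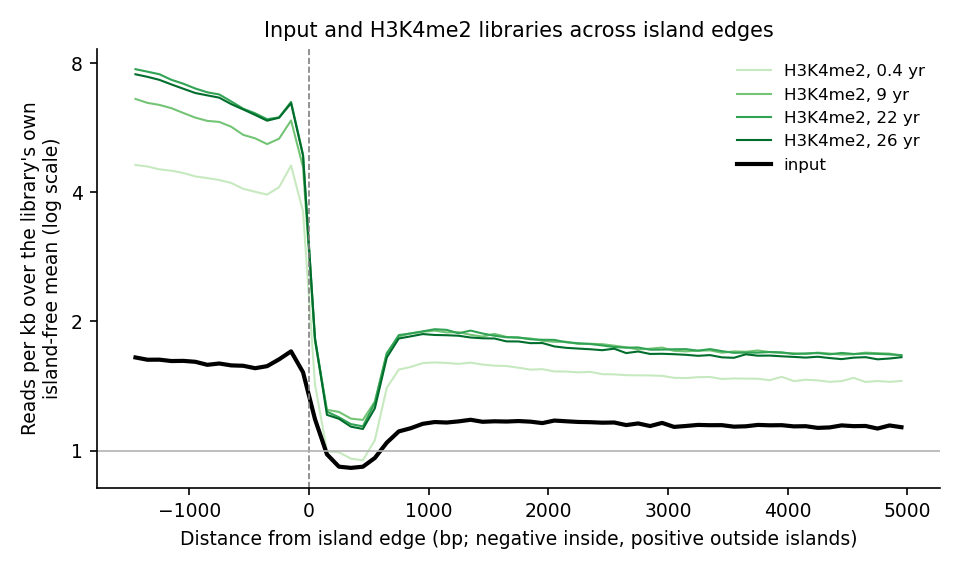
Reads per kb across island edges in the input (black) and the 4 H3K4me2 libraries (green), each divided by its own island-free mean, on a log scale. All 5 libraries share the trough outside the edge, with the input at 0.91 and the H3K4me2 libraries at 0.96 to 1.19 at 300 to 400 bp. Edges were set by the H3K4me2 reads, so the trough of those libraries follows from the calling.

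Beyond the edge the input declined over a long range. Outside islands it held 4.96 reads per kb within 1 kb of the nearest island, 5.66 at 1 to 2 kb, 5.54 at 2 to 5 kb, 5.33 at 5 to 10 kb, 5.15 at 10 to 20 kb, 5.04 at 20 to 50 kb, 4.91 at 50 to 100 kb, 4.71 at 100 to 200 kb and 4.03 (4.028 to 4.039) over 200 kb away. Without empty windows the last value was 4.68 and that at 1 to 2 kb 5.88, so the decline remained. The H3K4me2 libraries declined more over the same range, from 1.61 to 1.88 times their island-free mean at 1 to 2 kb to 0.596 to 0.661 times beyond 200 kb, against 1.19 and 0.847 in the input.

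**Figure D4:**
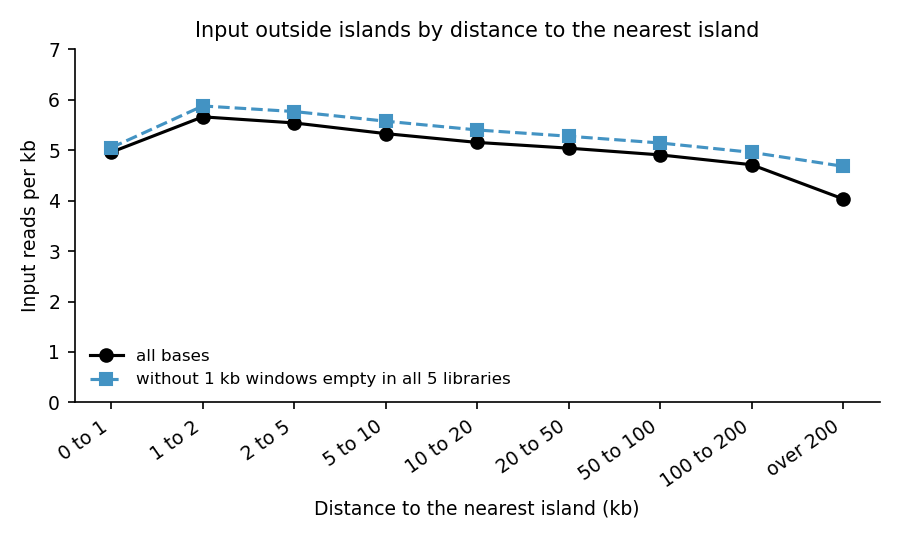
Input reads per kb in bases outside islands by distance to the nearest island, for all bases (circles) and without 1 kb windows empty in all 5 libraries (squares). After the low first class, the level falls from 5.66 at 1 to 2 kb to 4.03 beyond 200 kb, or from 5.88 to 4.68 without empty windows.

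In island-rich regions the islands were denser, while the sequence between them, empty windows included, was densest at middling coverage. The autosomes were divided into windows of 1 Mb by the share covered by islands. Island density was higher at higher coverage, at 6.92, 7.00, 7.40, 7.80 and 8.19 reads per kb for coverage under 2%, 2 to 5%, 5 to 10%, 10 to 20% and over 20%. With windows of 250 kb it was 7.09, 6.99, 7.30, 7.57 and 8.17, so the order of the first 2 classes turned. Flanks held 5.03, 5.38, 5.59, 5.66 and 5.18 reads per kb in the same order, and island-free bins 4.38, 5.06, 5.26, 5.26 and 4.90. Islands thus exceeded their flanks in every class, by a ratio of 1.38, 1.30, 1.32, 1.38 and 1.58. The flank and bin values count windows empty in all 5 libraries and were not computed without them. On chromosome 19, of which islands cover 20.3%, such windows made up 36.8% of the island-free bins. Their part in the lower values of the least and most covered classes was not tested.

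In windows of equal width the input was higher inside islands over most of the distribution. Windows of 1 kb wholly in islands held a median of 8 input reads (5th to 95th percentile 3 to 14), those in flanks 5 (0 to 11) and those in island-free bins 4 (0 to 10). No read fell in 0.132% of the 151224 island windows, 5.88% of the 295694 flank windows and 9.06% of the 2155670 island-free windows. With more than 2 times the island-free mean as the threshold, 28.2% of island windows were over it (27.97 to 28.42), against 11.5% of flank windows, 6.59% of island-free windows and 8.59% of all autosomal windows. The variance of the window counts was 1.62 times their mean in islands, 2.32 times in flanks and 4.69 times in island-free bins, where counting error alone gives 1. Without the 1% of windows with most input reads these values were 1.13, 1.81 and 1.84, so flanks and island-free bins then differed little. The cut was the same for all regions, at 15 reads, where the 99th percentile was 17 in islands, 15 in flanks and 13 in island-free bins. It removed a larger share of the island windows, which lowers their value, so the island value is not comparable with the others.

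**Figure D5:**
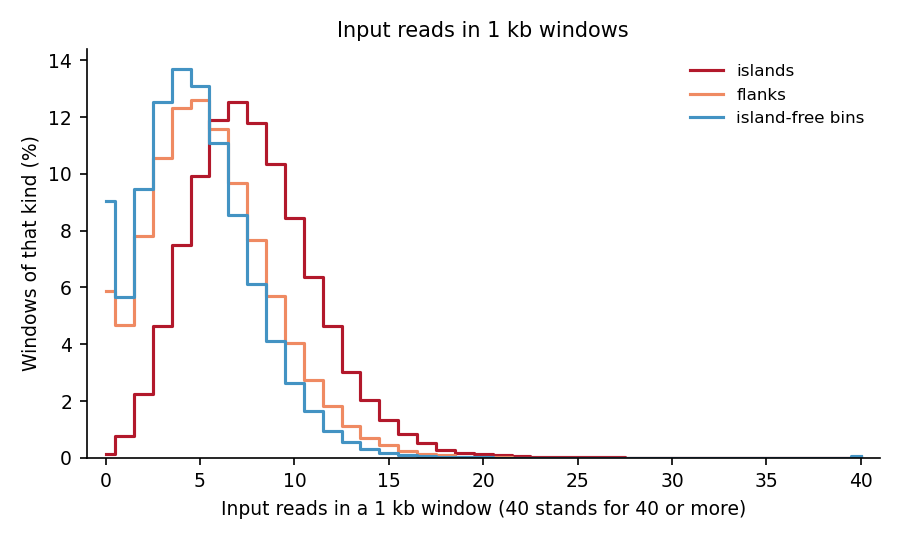
Share of 1 kb windows by the number of input reads they hold, for windows wholly in islands, in flanks and in island-free bins. The island curve is centred at 8 reads and has almost no empty windows, while 9.06% of the island-free windows are empty.

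The densest input lay mostly outside islands, as does most of the autosomal length. Over 10 times the island-free mean were 28 island windows (0.0185%), 37 flank windows (0.0125%) and 1009 island-free windows (0.0468%). Counting windows that straddle these regions there were 1094 on the autosomes, and they held 0.982% of the autosomal input reads. Of these windows 92.6% touched neither island nor flank. Islands and flanks cover only 197.6 and 362 Mb of the 2709.82 Mb of autosomes, so most windows of any density touch neither. Dense input also counted against the calling of an island. Joined across up to 50 kb they formed 187 clusters, 103 of them a single window. The cluster with most reads was chr9:762001-869000, with 53 such windows and 11801 input reads in them, followed by chr8:1-63000 with 54 windows and 11337 reads and chr3:32878001-33006000 with 60 windows and 7463 reads. None of the 3 touched an island.

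These places were dense in the antibody libraries too. The densest single window, chr2:123178001-123179000, held 1509 input reads, and 1024, 731, 925 and 851 reads at 0.4, 9, 22 and 26 yr. Over the 1094 windows the input stood at 25.9 times its island-free mean, and the H3K4me2 libraries at 28.5, 27.9, 28.6 and 27.5 times theirs. These windows were chosen on the input alone, so only the 4 other values are free of that choice. No library repeats a read at the same position and strand, so the count that a window can reach is bounded. Such a bound can lower the levels of the densest windows, and the input is the library with most reads. The part of this bound in the levels, and in the lower value of the input, was not tested.

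Islands themselves ranged from 0 to 97.8 input reads per kb, with a median of 7.5 and 1st and 99th percentiles of 2.78 and 15.0. The 5 densest were the only ones over 10 times the island-free mean. The first, chr1:140038001-140045400, had 724 reads in 7400 bp (97.8 per kb, 90.84 to 105.2) against 29 reads in its 10 kb of flanks, a ratio of 33.7. The others were narrow. The island chr8:2203201-2203600 had 35 reads (87.5 per kb) and chr11:129489601-129490000 had 32 (80.0 per kb). The island chr5:181734001-181734600 had 42 reads (70.0 per kb) and chr7:166999001-166999200 had 11 (55.0 per kb, 27.46 to 98.41). Their flanks held 2.90 to 4.90 reads per kb, near or under the island-free mean, so the high level did not extend over the flanks. The authors' deposited table gives them a fold over input of 1.31 to 1.68, where the median autosomal island has 2.32. These islands were chosen for dense input, which lowers that fold by construction.

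At the other end, 37 islands held no input read, all of them up to 1 kb wide. The widest, chr12:31974401-31975400 with 1000 bp, is limited by its 0 reads to under 3.00 reads per kb at a limit of 3 reads, while its flanks held 6.60 per kb and the H3K4me2 libraries together 63 reads. Of the islands of at least 1 kb, chr14:26009201-26010800, chr15:23122001-23123600, chr20:71031601-71033200 and chr1:48138801-48140000 came next, with 1 read each. Their flanks held 2.50 to 4.20 reads per kb. These islands were chosen for their low counts, so their values are a description. In the authors' deposited table these 5 islands have folds of 23.6 to 88.6, which a low input count raises by construction.

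Only wide or dense islands had enough reads to be set against their own flanks. In 1515 islands both the island and its flanks held at least 50 input reads, with a median island width of 7400 bp. The median ratio was 1.27, with 5th and 95th percentiles of 0.881 and 1.94, and it was above 1 in 1311 islands. The 95% interval of the ratio lay above 1 in 445 (29.4%) and below 1 in 7 (0.462%). A ratio above 2 was found in 68 (4.49%) and a ratio under 0.5 in 0 (0%). The filter keeps islands with many input reads, so these shares describe these 1515 and not the rest.

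Among these 1515, the ratio was highest at chr16:31463801-31471200, with 301 reads in the island (40.7 per kb) and 74 in its flanks, a ratio of 5.50 (4.250 to 7.188). It was followed by chr5:182069801-182074800 at 5.45, chr18:71905201-71907000 at 5.07, chr11:11250601-11257000 at 4.61 and chr19:47250801-47254800 at 4.12. The chromosome 11 island overlaps the start of a dense stretch, chr11:11252001-11361000. All 5 were dense for an island, at 21.0 to 40.7 reads per kb, and their folds in the authors' deposited table were 1.15 to 1.42. Dense input lowers that fold by construction. The lowest ratio was that of chr2:47156801-47165600, with 60 reads in the island (6.82 per kb) and 64 in 5.6 kb of flanks, a ratio of 0.597 (0.412 to 0.862). Next came chr20:55992401-56007000 at 0.608, chr6:108822001-108832600 at 0.628, chr6:129696001-129704400 at 0.664 and chr16:29865201-29875800 at 0.681. The first chromosome 6 island had 368 reads, 34.7 per kb, and lies within a dense stretch of the input, chr6:108797001-108849000, whose level at its flanks was 55.3 per kb. In the other 4 the island level was 6.23 to 8.49 per kb, close to that of other islands, beside flanks of 9.14 to 14.0.

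Input density moved with the strength of H3K4me2 in different directions in narrow and in wide islands. Over all widths, the islands were put into 4 equal groups by the reads per kb of the 4 H3K4me2 libraries together, which do not contain the input. From the weakest to the strongest group the input held 7.28, 8.21, 8.14 and 7.66 reads per kb, while H3K4me2 went from 34.7 through 43.8 and 59.4 to 98.4. The flanks of the input fell across the same groups, at 5.81, 5.59, 5.26 and 4.83 reads per kb. The ratio of islands to flanks in the input rose in turn, at 1.25, 1.47, 1.55 and 1.59. Calling required the H3K4me2 reads of an island to exceed this input, and the part of that requirement in the low value of the weakest group was not tested.

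The island densities over all widths mixed classes with opposite orders. With the 4 groups formed within each width class, the input from weakest to strongest was 7.20, 7.83, 8.36 and 9.68 reads per kb in islands of up to 1 kb, a rise at each step. In islands over 1 to 2 kb it was 6.55, 7.40, 7.94 and 7.94. Over 2 to 5 kb it was 6.86, 7.99, 8.07 and 7.16, and over 5 to 10 kb 8.18, 8.60, 7.87 and 7.74, with the highest value in a middle group in both. In islands over 10 kb it was 8.79, 8.67, 8.44 and 8.43, highest in the weakest group. The flanks were lower in the strongest than in the weakest group in each of the 5 classes. The ratio of islands to flanks was higher in the strongest group in each of them. From narrow to wide it was 1.34, 1.17, 1.17, 1.34 and 1.49 in the weakest group. In the strongest it was 1.95, 1.62, 1.51, 1.65 and 1.89. The groups rank raw H3K4me2 reads, so islands dense in all 5 libraries, input included, can be in the strongest group. The narrow islands named above for the densest input had 275 to 545 H3K4me2 reads per kb. The part of such islands in the rise among narrow islands was not tested.

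Reads on the 2 strands showed a small offset at islands. In the 1000 bp left of the island centre 50.24% of the input reads lay on the plus strand (50.09 to 50.39), and in the 1000 bp to the right 49.64% (49.49 to 49.79). At 2000 to 5000 bp from the centre the shares were 49.94% on the left and 50.08% on the right, with intervals that include 50%. The H3K4me2 libraries had a larger offset of the same direction, with 51.47 to 51.79% on the left and 48.05 to 48.41% on the right. Pairs of a plus read and a minus read downstream of it were counted over 11 bp around each spacing from 25 to 2000 bp. In islands, the H3K4me2 libraries had most pairs at a spacing of 150 bp, at 2.00 to 2.40 times the number at 2000 bp. The input was highest at 50 bp, at 1.38 times, and stood at 1.29 at 150 bp, 1.16 at 300 bp and 1.11 at 500 bp, so it had no peak near the stated fragment length of 300 to 500 bp. In island-free bins the input was highest at the shortest spacing, 25 bp, at 2.03 times the number at 2000 bp, and the H3K4me2 libraries were too, at 1.99 to 2.20 times. The base at 2000 bp is not alike in the 2 regions. Median island widths were 2200 to 3000 bp in the 4 H3K4me2 groups, so a read 2000 bp away can lie past the island edge, where reads are sparser. That raises the island values, most in the H3K4me2 libraries.

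Set against the input, the antibody libraries kept part of their contrast. Islands were called where these libraries together exceeded this same input, so that some contrast remains follows from the calling. Without regard to the input, islands were 4.43, 6.14, 7.08 and 6.88 times the island-free bins at 0.4, 9, 22 and 26 yr. Divided by the 1.64 of the input these became 2.70, 3.74, 4.32 and 4.20. Against flanks the same libraries gave 3.06, 3.68, 4.25 and 4.20, or 2.12, 2.54, 2.94 and 2.90 after division by the 1.45 of the input. The flanks of the H3K4me2 libraries were 1.44, 1.67, 1.67 and 1.64 times their bins, more than the 1.13 of the input. Each age is 1 animal, and differences between ages were not tested.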

How the data were processed

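Each read file gives 1 read per line. Neither aligner nor genome build is given in the sources used here. Within a library no 2 reads share position and strand, although how repeats were removed is not stated. Islands come from SICER, per the submitters' processing notes, and the table's name gives its window (200 bp), gap (400 bp) and false discovery rate (0.001). That table's columns were identified on the reads. Its deposited input count equals the one made here for 86.5% of autosomal islands and is within 2 reads for 99.98%, its deposited H3K4me2 count is within 2 reads, for 98.5%, of the 4 libraries together with each position shared between them counted once, and the deposited ratio is the authors' fold.

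Reads were counted 75 bp from their 5' end on a grid of 100 bp over the 2709.82 Mb of autosomes up to the last read. Ratios of reads per kb carry exact conditional binomial intervals, densities exact Poisson intervals and shares exact Clopper-Pearson intervals, all at 95%. With 1544698 reads in islands the summed ratios are precise to under 1%, while an island of median width holds too few reads for a ratio of its own. A count of 0 was read against a limit of 3 reads. The ratios were tested on simulated reads. Named by rule were the 5 densest islands, the 5 sparsest of at least 1 kb, the 5 highest and 5 lowest ratios to flanks with at least 50 reads in each, and 3 autosomes at each end. Clusters, the single densest window and the dense stretches on chromosomes 6 and 11 were named after their values were seen. Members, rules and lists were chosen with earlier results of these data known. Intervals came from scipy 1.17.1, tables and counts from pandas 2.3.3 and numpy 2.4.6 under Python 3.11.15, and figures from matplotlib 3.10.9. Chromosome X was left out of the comparisons.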

Additional observations from a re-analysis of the deposited data

How the results depend on the processing

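Values below are ratios of input reads per kb, in the order islands over flanks, islands over island-free bins and flanks over bins, reported as 1.447, 1.641 and 1.134. Every ratio computed under a setting was above 1, though some settings give only 1 or 2 of the 3. They were 1.411, 1.618 and 1.147 with reads placed 200 bp from the 5' end, 1.399, 1.527 and 1.091 without 1 kb windows empty in all 5 libraries, 1.614, 1.960 and 1.215 with windows chosen on H3K4me2 alone, 1.419, 1.613 and 1.137 without the 1% of windows with most input, 1.6, 2.0 and 1.25 as medians of 1 kb windows (whole reads), and 1.442, 1.665 and 1.152 as the mean of the 20 autosomes. Islands over flanks and flanks over bins were 1.484 and 1.105 with flanks of 2 kb, 1.475 and 1.113 with flanks of 20 kb, and 1.402 and 1.170 with flanks from 1 to 5 kb, the last chosen after seeing the data. Islands with no other within 20 kb (9982) were 1.352 times their flanks. Without their outer 200 bp, islands were 1.450 times the flanks and 1.644 times the bins. Placement at the 5' end (0 bp), and bins shifted by 5 kb where they apply, stayed within the intervals.

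By width from narrow to wide, the ratios of 1.565, 1.383, 1.389, 1.519 and 1.673 became 1.439, 1.331, 1.353, 1.476 and 1.616 with placement at 200 bp. With a deposited fold of at least 2 they were 1.403, 1.251, 1.344, 1.523 and 1.754, so the widest class was highest in each setting and the narrowest fell below the class over 5 to 10 kb. The fold has the input count as its denominator, so this filter acts on the input itself and is no independent check. The ratio of islands to flanks stayed above 1 on all 20 autosomes without empty windows. The shares of 28.2%, 11.5% and 6.59% of windows in islands, flanks and bins over 2 times the mean were 3.68%, 1.06% and 0.502% over 3 times the mean and 38.5%, 17.2% and 10.7% over 2 times the median. Between the most and least covered 1 Mb windows, island-free bins differed by a ratio of 1.119, and also 1.119 with 250 kb windows, both with empty windows counted. No paired analysis was possible because there is 1 input library and no group has a replicate. The depth of the input limits single islands, with a median of 23 reads in the class over 2 to 5 kb.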

Other observations

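The X chromosome, left out above, held less input than the autosomes and the same order of regions. Its 775 islands held 4.72 reads per kb, its flanks 3.24 and its island-free bins 2.62, so islands were 1.46 times the flanks (1.424 to 1.496) and 1.81 times the bins. Without windows empty in all 5 libraries these ratios were 1.42 and 1.64.

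Dense windows were unevenly spread over the autosomes. Of the 1094 windows over 10 times the island-free mean, 207 lay on chromosome 8, 164 on chromosome 9 and 106 on chromosome 3. These chromosomes span 147.8, 133.3 and 196.4 Mb of the 2709.82 Mb of autosomes. The 5 largest clusters held 263 of the 1094 windows, so a few places weigh heavily in the counts. Clusters at chr9:363001-462000 and chr9:562001-632000 lie near the largest one on that chromosome, with 35 and 38 windows, and the first of them overlaps 3 islands.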
